A study of Mus musculus with 28 samples.

Results

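Smooth muscle actin and 9 further genes, grouped as contractile and actin-binding genes, were followed through cells sorted from mouse lung. Tubb6 stands in the group although it encodes a beta-tubulin and is neither. The 10 genes were Acta2, Tagln, Myl9, Marcks, Nexn, Cnn1, Tpm1, Tpm2, Myh11 and Tubb6, and all 10 stood among the 19375 genes listed in each of the 28 libraries. They were chosen as contractile and actin-binding genes, with Acta2, Marcks and Nexn listed at 0 in untreated type 1 alveolar epithelial cells (AEC1) and above 0 in AEC1 after papain. The AEC1 papain and untreated values therefore chose these 3 genes, and they are given below as a description.

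The study sorted AEC1, type 2 alveolar epithelial cells (AEC2), basophils and group 2 innate lymphoid cells (ILC2) from lungs of wild-type C57BL/6 mice aged 8 weeks, and compared 3 treatments. Mice of the papain+FK506 groups received FK506 (tacrolimus, an inhibitor of the phosphatase calcineurin) by intraperitoneal injection at 0.2 mg per day in 3-day courses with 2 days between them, and papain was given during the last course. Mice of the papain groups received papain, a plant cysteine protease that provokes allergic airway inflammation, through the nose at 50 µg per day for 3 days, and mice of the untreated groups received neither. AEC1 and AEC2 had 2 libraries per treatment, ILC2 had 3 per treatment, and basophils had 3 papain+FK506 libraries, 3 papain libraries and 1 untreated library whose title names a pair of controls. Nothing in the labels says that replicates came from separate animals, so every p-value measures the spread between these libraries, which may be technical.

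Smooth muscle cells shorten when myosin II filaments pull on actin filaments. Acta2 encodes the smooth muscle alpha-actin of those filaments, Myh11 the smooth muscle myosin heavy chain, and Myl9 a regulatory light chain that triggers contraction once phosphorylated. Tpm1 and Tpm2 encode tropomyosins, which lie along actin. Tagln (transgelin, SM22-alpha) and Cnn1 (calponin) bind actin, and Nexn (nexilin) binds actin filaments at adhesion sites and at the Z-disc of striated muscle. Marcks encodes a protein kinase C substrate that links actin to the plasma membrane, and Tubb6 a class of beta-tubulin. Acta2, Tagln, Cnn1 and Myh11 are commonly used to mark smooth muscle, with Cnn1 and Myh11 taken as marks of its mature contractile state, whereas Acta2 and Tagln are also found in myofibroblasts.

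Many smooth muscle genes are read out by serum response factor, which binds the CArG box, a 10-base element with a symmetric pattern that reads alike on both strands. Windows of 250 bases before a start listed for the gene, from RefSeq with build GRCm38.p6, were at hand for 5 of the 10 genes (Acta2, Cnn1, Myl9, Tpm1 and Tpm2). The start used for a window need not be the outer end of the RefSeq gene. An exact CArG box was found in 1 of these 5 windows, against 481 of 32536 windows of all genes (1.48%). With up to 1 of the 6 inner bases allowed to be G or C, it was found in 2 of 5, against 2794 windows of all genes (8.59%). The 4 matches are shown because they are the only ones of either kind in the 5 windows. Each is printed 5′ to 3′ in the direction of transcription, with the box in capitals.
Myl9 exact box, chr2:156775293-156775322, plus strand: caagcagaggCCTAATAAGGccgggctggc
Myl9 box with 1 inner G, chr2:156775355-156775384, plus strand: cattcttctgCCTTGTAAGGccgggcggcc
Acta2 distal box with 1 inner C, chr19:34255438-34255467, minus strand: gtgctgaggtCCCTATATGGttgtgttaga
Acta2 proximal box with 1 inner G, chr19:34255388-34255417, minus strand: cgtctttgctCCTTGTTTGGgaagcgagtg
The Myl9 boxes lay 161 to 152 and 99 to 90 bases before the start used for the window. Neither printed stretch lay wholly inside a GENCODE vM21 exon of Myl9, and exons of other genes were not checked. Both Myl9 boxes lay before the RefSeq gene, which begins at 156775408. The Acta2 boxes lay 84 to 75 and 34 to 25 bases before the start used for the window. Both lay inside the RefSeq gene, which spans 34240336 to 34255585 on the minus strand, and inside a GENCODE vM21 exon of Acta2. A match is a string of letters and no evidence of binding, and a window without one says nothing about the factor.

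Values are CPM as deposited, that is, reads per gene scaled by library size. Most libraries list even Gapdh, a gene of basic metabolism, at 0. A 0 is therefore read as a listing and not as absence, and where a whole group is at 0 its levels are given without a fold. Reads recovered from the values came to 847513 to 974739 in AEC1 and to 1206886 to 1336639 in 5 AEC2 libraries, where 1 read was worth 0.748 to 1.18 CPM. For the remaining libraries the depth was not recovered. AEC2 untreated replicate 2 and AEC2 papain replicate 2 held nearly the same profile although the labels put them in different treatments. Of 4584 genes at 20 CPM or more in both, 90.4% lay within 0.1 log2 units of their median ratio, against at most 11.5% in the other 86 pairs of libraries of 1 cell type. Their recovered read counts were equal for 34.3% of these genes, against at most 1.3% in other AEC pairs. Pearson's r between them was 0.994, against 0.62 to 0.724 in other AEC2 pairs. Every AEC2 result below is read with that in mind. For the genes chosen at the outset, AEC1 and AEC2 were also compared without both libraries, over all treatments and in the papain+FK506 libraries. The AEC1 to AEC2 tests of other gene lists, and those in the papain or untreated libraries alone, are given only with both libraries in the fit.

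The sorted populations did not all carry the markers of their labels. The 10 AEC2 markers summed to 121414 to 145770 CPM in AEC2 libraries. AEC1 markers summed to 784 to 1111 CPM in AEC1 libraries, below the 1731 to 4192 CPM in AEC2 libraries, whereas 12 fibroblast markers reached a sum of 6275 to 15472 CPM in AEC1 libraries. The sum of 8 mesothelial markers there was 3528 to 11542 CPM. The name AEC1 is therefore kept below only as the sort label. In the 7 basophil libraries the defining genes Mcpt8, Fcer1a, Ms4a2, Cd200r3 and Prss34 were listed at 0 throughout. All 10 basophil markers summed to 0 to 293.9 CPM there, whereas 12 markers of macrophages, monocytes and dendritic cells had a sum of 1574.0 CPM at the lowest and 7774.4 CPM at the highest, with 9 to 12 of them above 0. The name basophil is likewise kept only as the sort label.

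Of the 10 genes, 7 had their highest group median in the AEC1 libraries of mice given papain+FK506: Acta2, Tagln, Marcks, Nexn, Tpm1, Tpm2 and Tubb6. The summed level of the 10 genes was 4765.6 and 3561.0 CPM in those libraries, against 2643.9 and 1279.4 CPM in AEC1 papain and 565.6 and 761.4 CPM in AEC1 untreated. In AEC2 it was 422.0 to 748.3 CPM over all 6 libraries. Basophils held 1248.1 to 1920.1 CPM with papain+FK506, 793.1 to 1409.5 CPM with papain, and 9.1 CPM in the single untreated library. In ILC2 the sum was 827 to 1634 CPM in the 3 libraries numbered 3, against 31.0 to 206 CPM in the 6 libraries numbered 1 or 2. The ILC2 and basophil tables sum to a lower total than the AEC tables, so these sums are set side by side within a sort only. Rescaled to a common total over the genes shared by all tables, the sum was 5708.3 and 4416.0 CPM in AEC1 papain+FK506 and 3031.9 CPM in untreated ILC2 replicate 3. These sums add genes with transcripts of different length, but the 3' kit counts about 1 read per transcript.

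**Figure D1:**
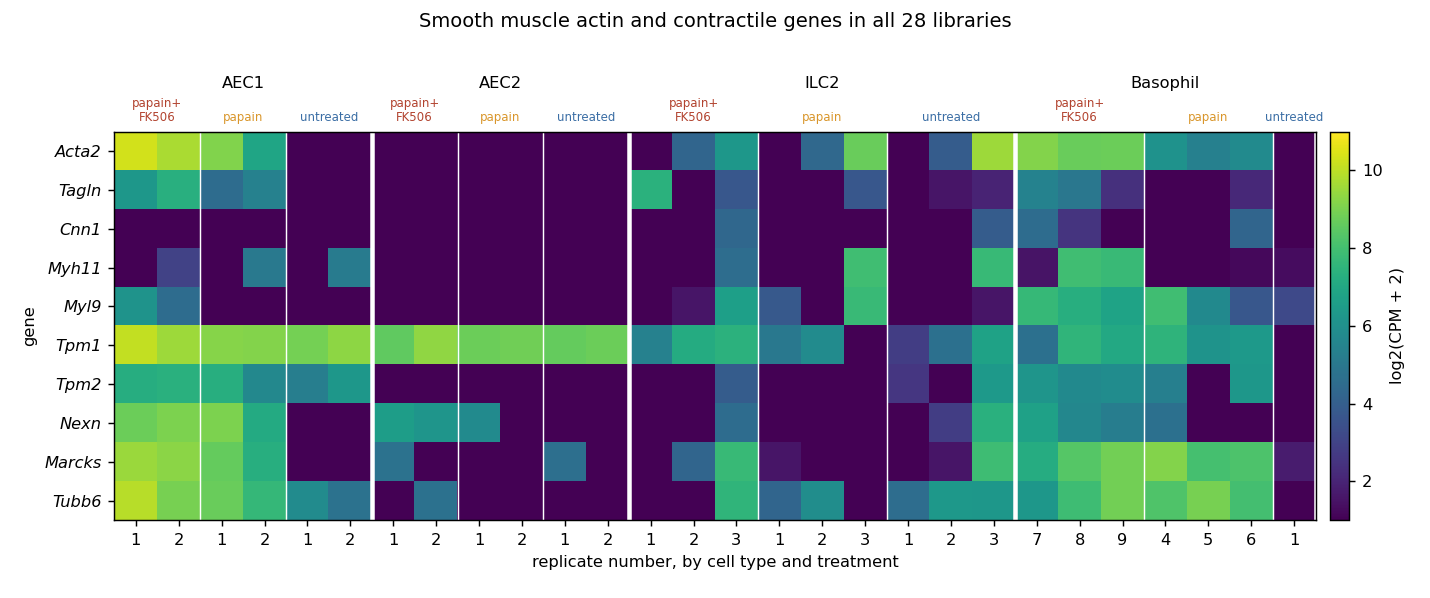
Level of each of the 10 genes (rows) in each of the 28 libraries (columns, by cell type and treatment), as log2(CPM + 2) on a colour scale, with papain+FK506 left of papain and papain left of untreated. The AEC1 libraries with papain or papain+FK506 are filled for Acta2, Marcks, Nexn and Tubb6, AEC2 shows little beyond Tpm1, and the ILC2 libraries numbered 3 stand apart from the other 6.

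For Acta2, the groups fell in the order AEC1 papain+FK506, basophil papain+FK506, AEC1 papain, by group median. On the deposited scale the AEC1 papain+FK506 libraries (1271.9 and 839.8 CPM) lay above every other library. After rescaling to a common total over the shared genes, untreated ILC2 replicate 3 (1369.3 CPM) lay between them (1523.5 and 1041.4 CPM). The basophil papain+FK506 libraries (559.4, 414.8 and 435.0 CPM) overlapped with AEC1 papain (549.5 and 114.8 CPM), so these neighbours did not differ beyond their spread.

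In AEC1, Acta2 was 549.5 and 114.8 CPM with papain and listed at 0 in both untreated libraries. Marcks was 390.7 and 151.7 CPM with papain and Nexn 520.9 and 136.3 CPM, and both were listed at 0 in the untreated libraries. Those are the values by which the 3 genes were chosen. Of the genes the choice did not name for this pattern, Tagln showed it too, at 21.2 and 40.0 CPM with papain and listed at 0 in untreated AEC1. Tubb6 was 422.5 and 197.9 CPM with papain and 53.9 and 25.3 CPM in untreated AEC1. The other 5 did not follow: Tpm1 was 586.6 and 558.7 CPM with papain and 474.7 and 625.6 CPM untreated, Tpm2 was 152.5 and 49.2 CPM with papain and 37.0 and 77.1 CPM untreated, and both genes overlapped between the groups. Myl9 and Cnn1 were listed at 0 in all 4 libraries, and Myh11 in papain replicate 1 and untreated replicate 1. The contrast had chosen the genes, so no test is given for it. As background, 0.0% of 8178 genes passed the threshold there, and 19.2% were higher with papain without overlap. In every bulk comparison, fewer cells of a type and less RNA per cell cannot be told apart.

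These genes were also above 0 in both AEC1 libraries from mice given FK506 with papain. Acta2 was 1271.9 and 839.8 CPM with papain+FK506, against 549.5 and 114.8 CPM with papain. Marcks was 723.5 and 613.4 CPM, against 390.7 and 151.7 CPM, and for both genes the groups did not overlap. Nexn was 428.3 and 513.1 CPM with papain+FK506, within the span of 520.9 and 136.3 CPM with papain. No test is given for these 3, since the papain libraries had helped to choose them.

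The remaining genes were open to a test in AEC1. Tubb6 was 966.2 and 498.9 CPM with papain+FK506, against 422.5 and 197.9 CPM with papain, a difference of 1.11 (SE 0.62) on the log2(CPM + 2) scale. Tagln was 75.8 and 156.9 CPM, against 21.2 and 40.0 CPM, a difference of 1.68 (SE 1.56). Myl9, the light chain, was 67.7 and 21.2 CPM with papain+FK506 and listed at 0 in both papain libraries. Tpm1 was 1085.2 and 749.0 CPM, against 586.6 and 558.7 CPM, and also did not overlap. Tpm2 (147.0 and 162.8 CPM, against 152.5 and 49.2 CPM) and Myh11 (0 and 5.9 CPM, against 0 and 30.8 CPM) overlapped, and Cnn1 was listed at 0 in all 4 libraries.

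None of the 6 genes tested passed the threshold for papain+FK506 against papain in AEC1, with limma and Benjamini-Hochberg adjusted p over all genes of 0.651 for Myl9 and 0.902 for Tagln, Tpm1 and Tubb6. Of the 6, Myl9 had an unadjusted p under 0.05 (0.0112), but it passed the filter only through the papain+FK506 libraries, which fixed its direction. Nor did any of the 8178 genes pass (0.0%), with 496 of them (6.07%) at an unadjusted p under 0.05, and edgeR on the recovered reads called none either. The median difference was 0.89 over the 6 genes and 0.08 over all genes. Tagln, Tpm1 and Tubb6 were higher with papain+FK506 without overlap, as were 19.5% of all genes, and with 2 libraries per group nothing is read from it.

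Against untreated AEC1, Tubb6 had the lowest p of the tested genes with papain+FK506, at 966.2 and 498.9 CPM against 53.9 and 25.3 CPM, which is 4.03 higher on the log2 scale (SE 0.62, limma adjusted p 0.120). The edgeR test on recovered reads, an alternative, called Tubb6 with an adjusted p of 0.00896. Tagln (75.8 and 156.9 CPM) and Myl9 (67.7 and 21.2 CPM) were listed at 0 in both untreated libraries and had limma adjusted p of 0.314 each. With limma, 0 of the 6 genes passed and 3 had an unadjusted p under 0.05 (Tubb6, Tagln and Myl9, the last with its direction fixed by the filter), beside 11.7% of all genes at that level, and 2 of 8178 genes passed (0.0245%). The median over the 6 genes was 2.7, or 2.08 with groups listed at 0 set to 3 reads per library, beside 0.30 over all genes. The papain+FK506 comparisons with papain and with untreated share the papain+FK506 libraries.

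**Figure D2:**
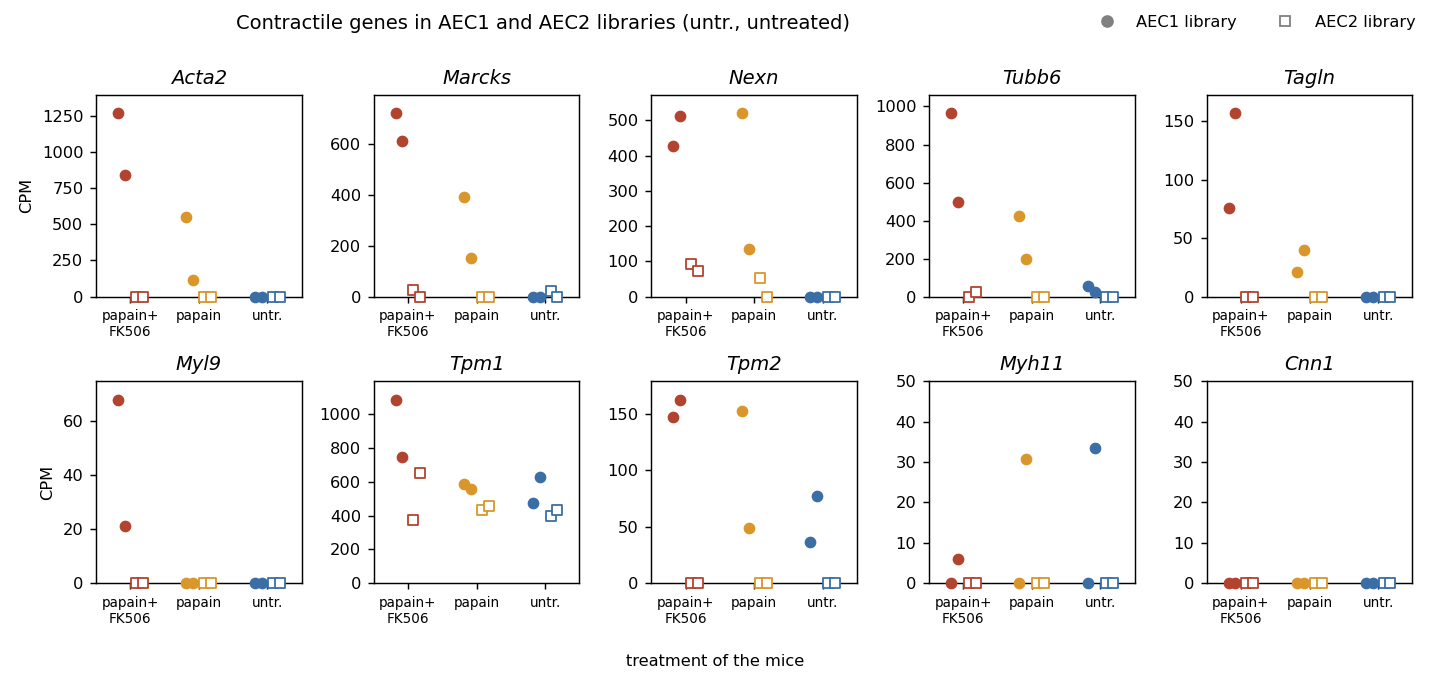
CPM of the 10 genes in each AEC1 and AEC2 library (filled circles for AEC1, open squares for AEC2; linear axes that differ between genes), with papain+FK506 left of papain and papain left of untreated (untr.). Acta2, Marcks and Nexn are at 0 in untreated AEC1 and between 114.8 and 1271.9 CPM in the other AEC1 libraries, and Tpm1 is at 374.2 CPM or more in every library of both sorts.

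No gene of the contractile machinery outside the 10 passed the limma test in AEC1. Of 17 tested genes of the contractile apparatus other than the 10, limma called none for papain+FK506 against papain and none against untreated, with 3 and 5 at an unadjusted p under 0.05. Their median difference between papain+FK506 and papain was 0.42, beside 0.08 over all genes. Cald1 (caldesmon, an actin- and myosin-binding regulator) was 2224.1 and 1969.8 CPM with papain+FK506, against 948.7 and 850.9 CPM with papain, a log2 difference of 1.07 (SE 0.37) with an adjusted p of 0.660. Mylk, the kinase that phosphorylates the myosin light chain, was 515.8 and 483.6 CPM with papain+FK506, 470.1 and 136.3 CPM with papain, and 73.0 and 93.2 CPM untreated. Among 14 tested regulators and targets of serum response factor and its coactivators, 13 other actin-related genes and 6 other tubulins, none passed in either comparison of papain+FK506. Their medians between papain+FK506 and papain were 0.49, 0.33 and 0.03, and 1 gene of each list had an unadjusted p under 0.05. Actb, the cytoplasmic beta-actin, was 4807.7 and 4879.8 CPM with papain+FK506, 3922.9 and 2314.8 CPM with papain, and 1949.5 and 1314.5 CPM untreated. Its difference between papain+FK506 and untreated was 1.46 (SE 0.30) with a limma adjusted p of 0.236.

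Markers of other cells differed between the AEC1 treatments too. Markers of smooth muscle that are none of the 10 summed to 2812 to 3229 CPM with papain+FK506, 1111 to 1858 CPM with papain and 861 to 1222 CPM untreated, and Cald1 made up most of each sum. Of these 10 markers, 8 were above 0 in both papain+FK506 libraries, 4 to 7 in the papain libraries and 4 to 7 in the untreated libraries. Pln was listed at 0 in all 6 AEC1 libraries. Pericyte markers summed to 83.8 to 232.2 CPM with papain+FK506 and 51.3 to 61.5 CPM with papain, and all 10 were listed at 0 in both untreated libraries. Of the 10 pericyte markers, 2 to 5 were above 0 with papain+FK506 and 1 to 4 with papain, and Rgs5 and Trpc6 were listed at 0 in all 6 libraries. Fibroblast markers summed to 9479 to 14313 CPM with papain+FK506, 6305 to 15472 CPM with papain and 6275 to 8284 CPM untreated. AEC2 markers were highest in untreated libraries, at 2046 to 4789 CPM with papain+FK506, 1697 to 2538 CPM with papain and 6808 to 10209 CPM untreated, and mesothelial markers were lowest with papain+FK506, at 3528 to 4177 CPM, against 5196 to 11542 CPM with papain and 8252 to 9245 CPM untreated. The part of these markers in the values of the 10 genes was not tested.

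**Figure D3:**
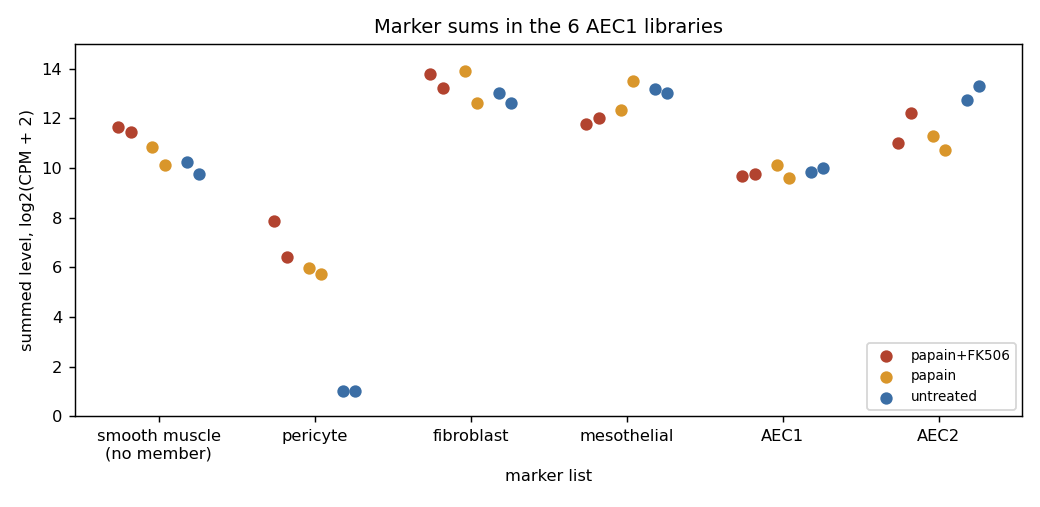
Summed level of 6 marker lists in the 6 AEC1 libraries (points), as log2(CPM + 2), for papain+FK506, papain and untreated. Pericyte markers are at 0 in both untreated libraries, smooth muscle markers other than the 10 genes are highest with papain+FK506, and AEC2 markers are highest untreated.

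Several contractile genes were higher in the AEC1 sort than in the AEC2 sort. Over the 3 treatments, 5 of the 9 genes tested were called higher in AEC1 than in AEC2 and none lower, but Acta2 and Marcks among the 5 had been chosen on AEC1 values that enter this contrast. Of the 6 genes not so chosen, limma called 3 (Tagln, Tpm2 and Tubb6), beside 8.25% of 9841 genes called higher and 12.7% called in either direction. Tagln, Myl9, Tpm2 and Myh11 passed the filter through AEC1 libraries alone. Tubb6 needed AEC1 libraries to pass as well, since 1 AEC2 library reached 10 CPM and the filter asks for 2. The filter thus fixed the direction of these genes, so these counts and their p-values are a description. Tubb6 was 25.3 to 966.2 CPM in the 6 AEC1 libraries and listed at 0 in 5 of 6 AEC2 libraries, with 24.9 CPM in the other (log2 difference 5.97, SE 0.79, limma adjusted p 0.000699). Tpm2 was 37.0 to 162.8 CPM in AEC1 and listed at 0 in all 6 AEC2 libraries (adjusted p 0.000823). Tubb6 and Tpm2 were the genes of the 10 whose groups did not overlap, which held for 4.9% of all genes in that direction. Tagln (limma adjusted p 0.0140) was listed at 0 in every AEC2 library. So was Acta2, and Marcks was at most 25.4 CPM in AEC2. No p is given here for Acta2, Marcks and Nexn.

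Of those 6, the genes not called were Myl9 (limma adjusted p 0.0950), Myh11 (0.245) and Tpm1. Tpm1 was 474.7 to 1085.2 CPM in AEC1 and 374.2 to 652.1 CPM in AEC2, a log2 difference of 0.44 (SE 0.26, adjusted p 0.291) that became -0.24 with DESeq2 size factors. Cnn1 was listed at 0 in all 12 libraries. The median difference over the 9 genes was 3.20, or 2.36 with genes listed at 0 throughout AEC2 set to 3 reads per library, beside 0.45 over all genes. The median over all genes was 0.07 with DESeq2 size factors. The 9 genes include Acta2, Marcks and Nexn, chosen on AEC1 values, and genes whose direction the filter fixed. Their median is therefore a description too. Without the 2 near-identical AEC2 libraries Tpm2 (adjusted p 0.00439) and Tubb6 (0.00592) were still called, beside 11.6% of 9401 genes in either direction, and Tagln (0.0522) missed the threshold. With edgeR on recovered reads, Tpm2 and Tubb6 were called.

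Since Acta2, Marcks and Nexn had been chosen on AEC1 papain and untreated values, the papain+FK506 libraries were also compared alone, in a comparison chosen after the data were seen. There 5 of 9 were higher in AEC1 than in AEC2, beside 1.85% of genes called higher. Acta2, Tagln, Myl9 and Tpm2 among them passed the filter through AEC1 libraries alone. Tubb6, with 1 AEC2 library at 10 CPM or more, needed AEC1 libraries to pass as well, so the count is a description. Acta2 was 1271.9 and 839.8 CPM in AEC1 and listed at 0 in AEC2 (limma adjusted p 0.00722), and Tpm2 was 147.0 and 162.8 CPM and listed at 0 (0.0313). Tubb6 was 966.2 and 498.9 CPM in AEC1, against 0 and 24.9 CPM in AEC2 (log2 difference 6.41, SE 1.37, adjusted p 0.0334). Tagln (0.0359) and Myl9 (0.0318) were likewise listed at 0 in AEC2, and Myl9 was above 0 in these 2 AEC1 libraries alone of the 12. Marcks was 723.5 and 613.4 CPM in AEC1, against 25.4 and 0 CPM in AEC2 (adjusted p 0.0682). With the near-identical libraries out of the fit, Acta2 (0.0139) and Tpm2 (0.0399) were called, beside 2.08% of genes in either direction. In the papain libraries alone, of the genes not chosen there, Tpm2 (0.0484) and Tubb6 (0.0220) were called, beside 1.96% of genes called higher. The filter had fixed the direction of these 2 genes here too. In the untreated libraries alone limma called none, with 2 (Tpm2 and Tubb6) at an unadjusted p under 0.05, beside 1.58% of genes called higher and 15.7% at that unadjusted level.

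Among the other genes of the contractile apparatus, 7 of 17 tested were higher in AEC1 than in AEC2 over all treatments and none lower, beside 8.25% of all genes called higher. Their median was 2.15, or 1.35 with groups at 0 set to 3 reads, beside 0.45 over all genes. By the AEC2 libraries alone 6 of the 17 would have passed the filter, and Des, Cav1 and Smtn would not. The rest needed AEC1 libraries to pass, which favoured a higher value in AEC1, so the counts and p-values are a description. Des (desmin, the muscle intermediate filament) was 0 to 360.6 CPM in AEC1 and listed at 0 in every AEC2 library (limma adjusted p 0.00481). Cald1 was 550.9 to 2224.1 CPM in AEC1, against 64.5 to 180.8 CPM in AEC2 (log2 difference 3.02, SE 0.35, adjusted p 0.000345). Cav1, which coats caveolae and is also an AEC1 marker, was 38.9 to 570.4 CPM in AEC1, with 33.1 CPM in 1 AEC2 library and 0 in the rest (adjusted p 0.000860). Smtn (smoothelin) was 29.5 to 114.4 CPM in AEC1 and listed at 0 in AEC2 (adjusted p 0.00231). Mylk and Csrp1, among the most abundant of the list, had differences of 0.46 and 0.04 with adjusted p of 0.596 and 0.968.

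For the lists that follow, the background over all genes was 8.25% called higher in AEC1, 12.7% called in either direction and a median of 0.45. Of 14 tested regulators and targets of serum response factor, 3 were higher in AEC1 and none lower, with a median of 1.79. They were Ccn2 (a secreted matrix-associated growth regulator, log2 difference 7.57, SE 0.63, limma adjusted p 3.13e-05), Zyx (zyxin, at focal adhesions) and Tgfb1i1 (Hic-5, at focal adhesions). Of 14 other actin-related genes 4 were higher and none lower, with a median of 0.73: Myh10 and Myh9, the heavy chains of non-muscle myosin II, Tpm4, and Tmsb10, which binds actin monomers. Of 6 other tubulins, Tubb2a was higher (3.95, SE 0.97, adjusted p 0.0226) and Tuba4a lower (-3.25, SE 0.61, adjusted p 0.00570). Fibroblast markers (7 of 11 tested) and mesothelial markers (7 of 8) were also called higher in AEC1, with medians of 5.94 and 6.38. By the AEC2 libraries alone 9 of the 14 regulators and targets of serum response factor would have passed the filter. So would 10 of the 14 actin-related genes, 4 of the 6 tubulins, 2 fibroblast markers and 2 mesothelial markers. The rest needed AEC1 libraries to pass, which favoured a higher value in AEC1. The counts, medians and p-values of these lists are therefore a description. The part of these markers in the difference of the contractile genes was not tested.

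Within AEC2 no treatment comparison called any of the 10 genes. Acta2, Tagln, Myl9, Cnn1, Tpm2 and Myh11 were listed at 0 in all 6 libraries, and 3 genes (Marcks, Nexn and Tpm1) passed the filter. Nexn was 92.8 and 71.3 CPM with papain+FK506, 52.9 and 0 CPM with papain, and 0 in both untreated libraries. Its difference between papain+FK506 and papain was 2.99 (SE 2.55, limma adjusted p 0.909), and the near-identical pair supplies one library to papain and the other to untreated. Without that pair it was 0.61. Marcks was 25.4 and 0 CPM with papain+FK506, 0 in both papain libraries, and 23 and 0 CPM untreated. Tubb6 was above 0 in papain+FK506 replicate 2 alone, at 24.9 CPM. Tpm1 was 374.2 and 652.1 CPM with papain+FK506, 432.2 and 455.1 CPM with papain, and 399 and 433.2 CPM untreated, so its groups overlapped. Limma called 0 of 6719 genes in each of the 3 comparisons (0.0%). For papain+FK506 against papain, edgeR on the recovered reads also called none of the genes it tested. The reads of AEC2 untreated replicate 1 were not recovered. That left edgeR with untreated replicate 2 alone, of the near-identical pair, so nothing is read from its comparisons with untreated. At an unadjusted p under 0.05 stood 284 genes (4.23%) for papain+FK506 against papain, 307 (4.57%) for papain+FK506 against untreated and 15 (0.223%) for papain against untreated, none of them among the 3. The difference between AEC1 and AEC2 in the step from papain to papain+FK506 was tested for 6 genes and called for none of them with limma or edgeR. Its lowest adjusted p was that of Myl9 (difference 4.16, SE 1.25, adjusted p 0.723, unadjusted 0.00656), whose direction the filter had fixed. No gene of 9841 was called (0.0%), and 5.75% had an unadjusted p under 0.05.

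In basophils, Acta2 lay higher with papain+FK506 than with papain in every library, but the difference did not pass the test. Acta2 was 559.4, 414.8 and 435.0 CPM with papain+FK506, against 66.6, 39.4 and 52.5 CPM with papain, and was listed at 0 in the untreated library. Every papain+FK506 library lay above every papain library. The log2 difference was 3.08 (SE 0.61), with a limma unadjusted p of 0.000127 and an adjusted p of 0.222. Nexn was 104.3, 47.2 and 35.7 CPM with papain+FK506, against 24.0, 0 and 0 CPM with papain, also without overlap (3.65, SE 1.6, adjusted p 0.812), but it passed the filter through the papain+FK506 libraries.

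The other genes of the 10 missed the filter or overlapped between the basophil treatments. Myh11 was 243.1 and 219.7 CPM in papain+FK506 replicates 8 and 9 but 0.9 CPM in replicate 7, against 0 to 0.3 CPM with papain, and it missed the filter. Tagln was 41.5, 29.6 and 3.2 CPM with papain+FK506, against 0, 0 and 2.4 CPM with papain, and it missed the filter as well. Myl9 was 204.2, 153.5 and 108.7 CPM, against 244.9, 51.4 and 11.3 CPM, Marcks was 144.9, 327.5 and 471.9 CPM, against 558.6, 260.5 and 294.2 CPM, and both overlapped. Tubb6 was 75.5, 237.6 and 462.2 CPM, against 299.3, 485.7 and 258.8 CPM, and overlapped as well. Tpm1 (24.0, 183.1 and 127.7 CPM, against 178.3, 68.5 and 80.5 CPM) and Tpm2 (72.0, 51.5 and 56.0 CPM, against 37.8, 0 and 75.7 CPM) overlapped too. Cnn1 was 21.4, 3.7 and 0 CPM with papain+FK506, against 0, 0 and 17.4 CPM with papain, and missed the filter. Of 7 genes tested, limma called 0 and 2 (Acta2 and Nexn) had an unadjusted p under 0.05. Of the 7, the same 2 were higher without overlap, beside 5.77% of all genes. Of 5853 genes none passed (0.0%), with 354 (6.05%) at an unadjusted p under 0.05. The median difference was 1.41 over the 7 genes and -0.07 over all genes. Nexn needed the papain+FK506 libraries to pass the filter, which favoured a higher value there. The counts and the median that include Nexn are therefore a description.

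**Figure D4:**
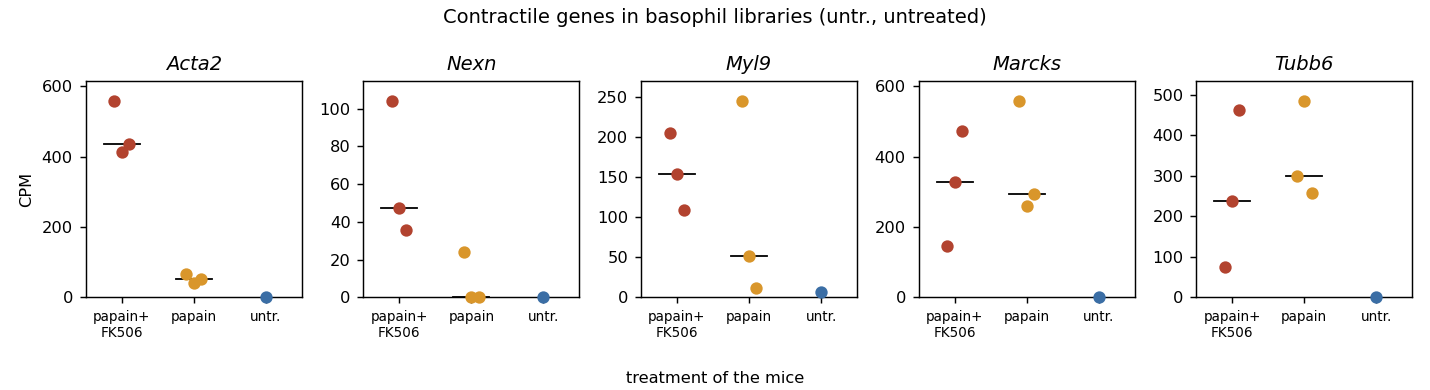
CPM of Acta2, Nexn, Myl9, Marcks and Tubb6 in each basophil library (points, with a line at the group median; linear axes that differ between genes), for papain+FK506, papain and the single untreated library (untr.). Acta2 separates papain+FK506 (414.8 to 559.4 CPM) from papain (39.4 to 66.6 CPM), and Myl9, Marcks and Tubb6 overlap.

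Markers of other cells differed between these basophil libraries too. Fibroblast markers summed to 1775 to 2925 CPM with papain+FK506 and 210 to 1002 CPM with papain, AEC2 markers to 2439 to 11426 CPM and 888 to 1828 CPM, and pericyte markers to 51.5 to 111.7 CPM and 0 to 10.6 CPM, all without overlap. Smooth muscle markers other than the 10 genes summed to 475 to 726 CPM with papain+FK506 and 50.8 to 599 CPM with papain. Platelet markers summed to 23.1 to 785 CPM with papain+FK506 and 530 to 5851 CPM with papain. ILC2 markers summed to 1295.2, 166.0 and 118.3 CPM with papain+FK506, against 31.4, 66.6 and 86.9 CPM with papain, without overlap. Those of macrophages, monocytes and dendritic cells had sums of 1574.0, 4198.3 and 5665.2 CPM with papain+FK506, against 4677.1, 7455.6 and 7774.4 CPM with papain. The part of these markers in the Acta2 values was not tested.

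Against the single untreated basophil library, which had 2002 genes above 0 and is assumed to vary like the treated libraries, 5 of 7 genes were higher with papain+FK506 and 4 of 7 with papain, and none was lower. The treated libraries had 6401 to 7894 genes above 0, and the tested genes passed the filter through them, which fixed the direction, so these counts support nothing. The background was high: 21.1% of 5853 genes were called higher in each of these comparisons, and the median over all genes was 3.09 for papain+FK506 and 3.05 for papain. Marcks was 144.9 to 471.9 CPM with papain+FK506 and 260.5 to 558.6 CPM with papain, against 1.4 CPM untreated, with log2 differences of 6.54 and 6.89 (SE 0.80 each; limma adjusted p 3.8e-05 and 2.48e-05). Acta2, Tpm1 and Tubb6 were listed at 0 in the untreated library and called in both comparisons, with adjusted p of 1.48e-05 to 0.00486 for papain+FK506 and 4.41e-05 to 0.00344 for papain. Myl9, at 7.2 CPM untreated, was called with papain+FK506 (4.32, SE 1.30, adjusted p 0.0240), and with DESeq2 size factors its adjusted p was 0.738. The medians over the 7 genes were 5.45 for papain+FK506 and 4.82 for papain, and they depend on the 2 CPM added to each value. Both comparisons share the untreated library.

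In ILC2, Acta2 and Myh11 differed by library number. Acta2 was 77, 420 and 738 CPM in replicate 3 of papain+FK506, papain and untreated, against 0 to 19 CPM in the 6 libraries numbered 1 or 2. Myh11 was 22, 240 and 211 CPM in replicate 3 of papain+FK506, papain and untreated, and listed at 0 in the other 6. Acta2 and Myh11 were the genes of the 10 higher in every replicate 3 than in every other ILC2 library, as were 218 of 6271 genes (3.48%). Myh11 passed the filter through the replicate 3 libraries alone, which fixed its place in that count. The file names give replicate 3 the code of the basophil files and the others a different one, and no p is given for a split chosen after seeing the values. AEC2 markers summed to 4099, 6674 and 4936 CPM in replicate 3 of papain+FK506, papain and untreated.

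Other markers set the ILC2 libraries numbered 3 apart as well. The label's own markers summed to 85 CPM in papain+FK506 replicate 3, 3329 CPM in papain replicate 3 and 1587 CPM in untreated replicate 3, against 2820 to 3943 CPM in the other 6. Those of macrophages, monocytes and dendritic cells had sums of 6111, 553 and 592 CPM in those 3 libraries, against 0 to 100 CPM in the other 6. Endothelial markers summed to 434, 1234 and 1563 CPM, against 16 to 165 CPM, and fibroblast markers to 965, 904 and 2858 CPM, against 43 to 407 CPM. These 3 lists were each higher in every replicate 3 than in the others. Smooth muscle markers other than the 10 genes summed to 184, 415 and 508 CPM, against 8 to 66 CPM. Cardiac muscle markers (46, 0 and 326 CPM, against 0 CPM) and pericyte markers (31, 0 and 198 CPM, against 0 to 16 CPM) were listed at 0 in papain replicate 3. Platelet markers were 1273, 198 and 214 CPM, against 61 to 439 CPM. The part of these markers in the Acta2 and Myh11 values was not tested.

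With the file code as a term, limma called none of 7 genes tested in any of the 3 ILC2 comparisons, and none of them had an unadjusted p under 0.05. Over 6271 genes it called 1 for papain+FK506 against papain (0.0159%) and none in the other comparisons (0.0%). The shares at an unadjusted p under 0.05 were 4.18% for papain+FK506 against papain, 3.99% for papain+FK506 against untreated and 3.73% for papain against untreated. Marcks was 0, 17 and 209 CPM with papain+FK506, 1, 0 and 0 CPM with papain, and 0, 1 and 239 CPM untreated. Tpm1 was 40, 140 and 172 CPM with papain+FK506, 30, 54 and 0 CPM with papain, and 5, 24 and 106 CPM untreated. Tagln reached 166 CPM in papain+FK506 replicate 1 and was at most 11 CPM in the other 8 libraries. Myl9 was 0, 1 and 97 CPM with papain+FK506, 12, 0 and 218 CPM with papain, and 0, 0 and 1 CPM untreated. Tubb6 was 0, 0 and 187 CPM with papain+FK506, 17, 58 and 0 CPM with papain, and 22, 78 and 77 CPM untreated. Nexn, Cnn1 and Tpm2 missed the filter and reached 163, 18 and 84 CPM, each in a library numbered 3. The differences of the 7 genes for papain+FK506 against papain ran from -0.93 to 3.20, with SE of 1.45 to 1.74.

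Acta2 was not always accompanied by Myh11 and Cnn1. In the 4 AEC1 libraries with Acta2 above 0 it stood at 114.8 to 1271.9 CPM, while Myh11 was at most 30.8 CPM and Cnn1 was listed at 0. In untreated AEC1 replicate 2, Myh11 was 33.4 CPM with Acta2 listed at 0. In ILC2 untreated replicate 3 the Acta2 level of 738 CPM stood beside 211 CPM of Myh11 and 13 CPM of Cnn1. In ILC2 papain replicate 3 it was 420 CPM beside 240 CPM of Myh11. In basophils, papain+FK506 replicates 8 and 9 had 414.8 and 435.0 CPM of Acta2 beside 243.1 and 219.7 CPM of Myh11, whereas replicate 7 had 559.4 CPM beside 0.9 CPM. Since the kit reads transcript ends, these levels were not scaled by transcript length.

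**Figure D5:**
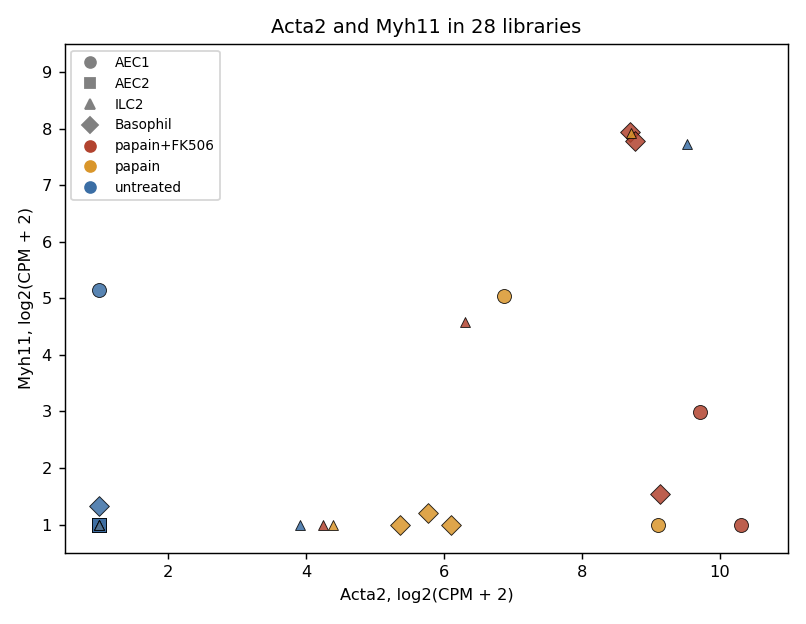
Acta2 (horizontal) against Myh11 (vertical) in the 28 libraries, both as log2(CPM + 2), where 0 CPM lies at 1, by sort (symbol) and treatment (colour). The AEC1 libraries with Acta2 lie at 114.8 to 1271.9 CPM with Myh11 at 0 to 30.8 CPM, whereas 2 ILC2 and 2 basophil libraries have Myh11 above 200 CPM.

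Across the 28 libraries, Acta2 was most like Crispld2, Itpripl2, Asap1, Sdc3 and Marcks among 10387 genes, with Pearson's r of log2(CPM + 2) of 0.85 to 0.80. Tagln was most like Olfml3, Pcolce2, Emilin1, Ap5z1 and Lif (0.77 to 0.72). Marcks was most like Sdc3, Sh3pxd2b, Spp1, Nav1 and Ccl2 (0.89 to 0.82), and genes most like Tubb6 included Zeb2, Sh3pxd2b, Dab2 and Plaur (0.85 to 0.81). Among the 10 genes, r was 0.75 for Tpm2 with Tubb6 and for Marcks with Tubb6, and 0.04 for Acta2 with Tpm1. The libraries share sorts, kits and file codes, so these values describe this set of libraries.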

How the data were processed

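Libraries were made from 10 ng of RNA with a Lexogen QuantSeq 3' kit, per the labels' protocols. Per the submitters' processing notes, STAR 2.7.0c, featureCounts 1.6.0 and builds mm10 and GRCm38.p6 were used, with no role given. The authors deposited CPM for AEC1, basophils and 5 AEC2 libraries. For AEC2 untreated replicate 1 and all ILC2 libraries the authors deposited a score, CPM rounded to whole numbers. Strand and multi-mapping settings are not given in the sources used here, so actin and tubulin genes with near-identical copies are uncertain. In 6 AEC1 and 5 AEC2 libraries 100.0% of values up to 25 CPM were whole reads within 0.1 read. For replicate 3 of each ILC2 group, 27 genes had no value.

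Genes at 10 CPM or more in at least 2 (AEC) or 3 (ILC2, basophil) libraries were tested. CPM were divided by TMM factors (edgeR 4.0.16), 2 CPM added, and log2 values fitted with limma 3.58.1 (trend, R 4.3.3), with a file code term for ILC2. Tests were two-sided, with Benjamini-Hochberg adjustment over all genes and a threshold of 0.05. Alternatives were other pseudocounts (1 and 5 CPM), no filter, no TMM factor, DESeq2 1.42.0 size factors, a replicate block, each library left out, edgeR on recovered reads, and, added after the data were seen, AEC1 against AEC2 within each treatment and without the near-identical AEC2 libraries. EdgeR left out AEC2 untreated replicate 1, whose reads were not recovered. The fits were tested on simulated data. All 10 members are named in every comparison. The other genes named follow a rule: of each pathway list, up to 4 past the threshold each way and up to 4 of the highest mean, and the 5 genes most like each of Acta2, Tagln, Marcks and Tubb6, of which 1 is not reported here. The members and gene lists were chosen with earlier results of these data known.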

Additional observations from a re-analysis of the deposited data

How the results depend on the processing

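Over 13 comparisons, 162 of 167 recounts of the genes called were equal to the value reported or lay within 1.5 times of it. These include the comparisons reported with 0 calls, where only a recount of 0 was taken as the same. They also include the basophil comparisons with untreated, whose counts support nothing. For AEC1 against AEC2 it held for 20 of 24 recounts. For AEC1 against AEC2 the count of 5, which includes Acta2 and Marcks, became 2 with edgeR on recovered reads, 3 without both near-identical AEC2 libraries, 0 in the untreated libraries alone, and 2 in the papain+FK506 libraries alone with that pair out of the fit. It was 4 to 6 with single libraries left out. For AEC1 papain+FK506 against untreated, edgeR called 1 where limma called 0. Leaving out single libraries gave 4 to 5 calls in each basophil comparison with untreated and 0 in every other treatment comparison and in the difference between AEC1 and AEC2. Between AEC1 and AEC2, the Tpm1 difference was -0.24 with DESeq2 size factors. In the untreated libraries alone Marcks had -1.91, and Myl9 and Nexn had 0 there, as Myl9 did in the papain libraries alone. The Myl9 call in basophils was lost without a filter (0.131), with DESeq2 size factors (0.738) and without papain+FK506 replicate 8 (0.0609). The cause was not tested.

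Replicate numbers were not taken to pair the libraries, since not every same-numbered pair correlated above 0.1: deviations of same-numbered libraries correlated at -0.02 to 0.02 in AEC1, -0.01 to 0.45 in AEC2 and 0.05 to 0.23 in ILC2, and 2 of 6, 4 of 6 and 6 of 9 libraries correlated best with their own number. The highest value in AEC2 belongs to the pairs that include the near-identical libraries, and the highest in ILC2, 0.15 to 0.23, to the libraries numbered 3, which share a file code that the fit has as a term. With the replicate block, AEC1 against AEC2 still had 5 calls and every treatment comparison in AEC1, AEC2 and ILC2 had 0. No paired analysis was possible for basophils because their groups share no number. In the AEC libraries with recovered reads, 1 read was worth 0.748 to 1.18 CPM, which limits the precision of low values. For the remaining libraries the worth of a read is not known.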
